A study of Homo sapiens with 6 samples.

Results

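The genes described here are 48 components of the DNA replication fork and of the supply of deoxynucleotides: the DNA polymerases and primase, the sliding clamp and its loader, the single-strand binding protein RPA, the origin recognition complex, the factors that fire origins, the enzymes that finish Okazaki fragments, the topoisomerases, the proteins that hold the fork together, and the enzymes that make the building blocks of DNA. They were chosen by gene symbol. Their level was read in HEK293, an established line of human embryonic kidney cells, 72 h after transfection with a BAHD1 siRNA (3 arrays) or with a control siRNA (3 arrays), each array holding one biological replicate, in the same culture medium and with the same transfection reagent. BAHD1 is a chromatin protein known for its part in heterochromatin formation and gene silencing. The comparison asks how the transcripts of replication genes differ after its knockdown. Of 54675 probe sets on the array, 91 are annotated to one of the 48 genes alone. A probe set was kept for testing when its signal was above 17.9, the median of all values, in at least 3 arrays. All 48 genes had a kept probe set, 83 probe sets in all, out of 12529 genes and 27458 probe sets. Where a gene had several, the brightest over all 6 arrays stands for it below, and the others are given as further probe sets.

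In a dividing cell, replication starts at origins marked by the origin recognition complex (ORC), where the helicase is loaded, and begins when the CDC7 kinase with its activator DBF4 allows CDC45 and the GINS complex to join it. Polymerase alpha with primase lays down primers, the clamp loader RFC places the ring-shaped clamp PCNA on them, and polymerases epsilon and delta extend the leading and lagging strands while RPA covers exposed single strands. Many of these genes are known targets of E2F transcription factors and peak around the G1/S transition, so in a mixed culture their level also follows the share of cells in S phase. Less RNA per cell and fewer cells in a phase cannot be told apart in such samples.

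BAHD1 itself, the targeted transcript, gave signals of 36.6, 46.8 and 41.2 in the BAHD1 siRNA arrays, against 62.9, 55.7 and 46.7 in the control arrays. The lowest control value lay just below the highest knockdown value, so the groups overlapped. Its level was 76% of the control level (95% interval 57.3% to 101%) and the difference was short of the threshold (limma, adjusted p = 0.251). All 6 arrays had median signals between 15.8 and 19.5. The added bacterial poly-A RNAs, 24 probe sets, averaged 9.02 to 9.32 in BAHD1 siRNA arrays and 8.55 to 8.76 in control arrays on the log2 scale, and each of the 24 was higher in every BAHD1 siRNA array. The ratio of 3' to 5' signal of GAPDH was 0.956 to 0.966 in BAHD1 siRNA arrays and 0.926 to 0.955 in control arrays. The part of these differences in the results below was not tested. Of the 8 HEK293 markers with a probe set (neurofilaments, keratins, VIM, PAX2 and EYA1), 7 were above 17.9 in all arrays, and NEFH was not. Of 10 markers of blood, liver, endothelial, muscle, fibroblast and glial cells, 1 was, COL1A1.

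Most replication genes differed little between the groups. FEN1 and TYMS fell, and none of the 48 rose; the other 46 did not pass the test. The test was limma with a variance prior that follows the mean signal, called the intensity-trend fit here, with Benjamini-Hochberg adjustment over all 27458 probe sets and a threshold of 0.05. The 2 of 48 make 4.17%, beside 5.52% of all 12529 genes called in either direction, 2.46% lower and 3.06% higher, so the count of calls is near the background. The median log2 fold change was -0.02 (log2(signal + 1), BAHD1 siRNA over control siRNA), beside 0.02 for all genes, and 29 of the 48 were below 0. After quantile normalisation of the arrays, 24 were below 0 and the median was 0.0046. Then 3 of the 48 were called, FEN1 and TYMS lower and POLE3 higher, beside 5.58% of all genes. Centring the array medians put the median of all genes at -0.11 and 42 of the 48 below 0; relative to the median of all genes the members' median was -0.05, as it was on the deposited scale. Fitted with one variance prior for all probe sets, limma called none of the 48 and none of all probe sets (0%); 7 of the 48 then had an unadjusted p under 0.05, beside 18.1% of all genes. Leaving out BAHD1 siRNA replicate 2 or 3, or control replicate 1 or 2, also left 0 of the 48 called. Over all 27458 probe sets the calls then fell from 1221 to 186, 177, 295 and 279, in that order.

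How tightly these levels were bounded can be read from the 95% intervals of the fold changes. In 44 of the 48 genes, 91.7%, the interval lay within 1.5-fold either way, beside 67.9% of all genes. The members were bright, with 37 of the 48 in the brightest 25% of genes; there the interval lay within 1.5-fold in 36 of these 37 and in 96.0% of all genes. The 4 whose interval reached further, POLE, GINS4, FEN1 and CLSPN, did so on the low side. Among those brightest genes the median of all genes was -0.03 and that of the 37 members -0.02, and 9.64% of genes were called. The groups did not overlap in 15 of the 48 (31.2%, beside 28.2% of all genes). Of these, 10 were lower (20.8%, beside 1523 of all 12529 genes, 12.2%) and 5 higher (beside 2005 of all 12529 genes). Among all genes more were thus higher than lower, the reverse of the members. These shares of all genes were not matched for brightness. In the brightest 25% of genes 42.5% had a log2 fold change above 0, against 67.1% in the dimmest 25%. The plots of fold changes by role and of their distribution show the same narrow band.

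**Figure D1:**
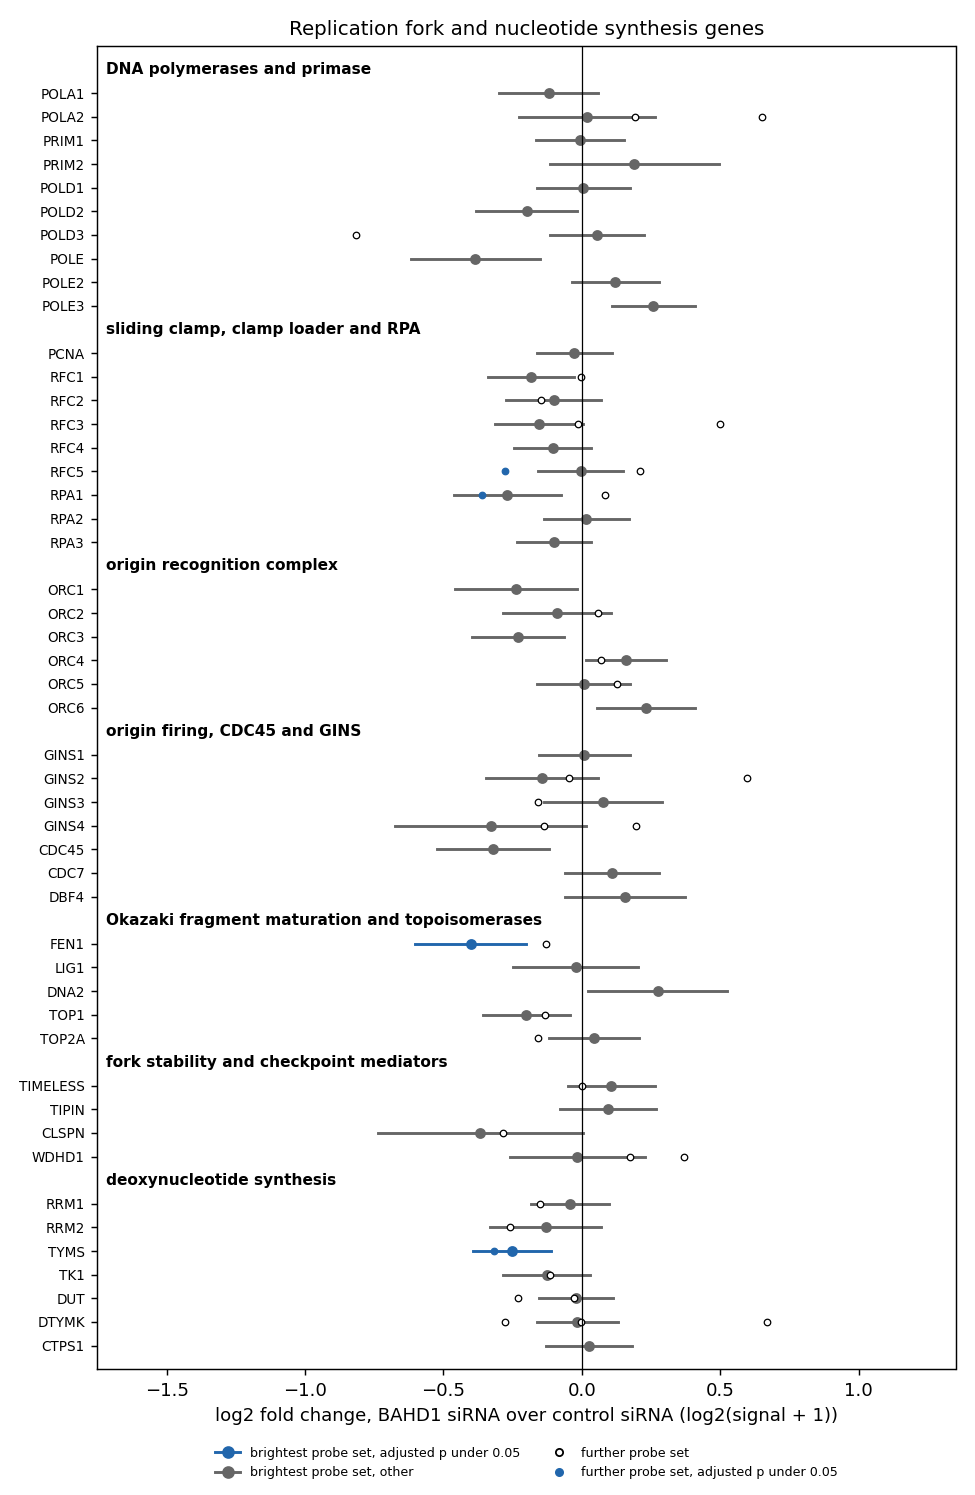
Log2 fold change of BAHD1 siRNA over control siRNA (x axis) for each of the 48 genes, grouped by role; large points are the brightest probe set with its 95% interval, small points further probe sets, and blue marks an adjusted p under 0.05 in the intensity-trend fit. FEN1 and TYMS are blue by their brightest probe set, RPA1 and RFC5 only by a further one, and most intervals cross 0.

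**Figure D2:**
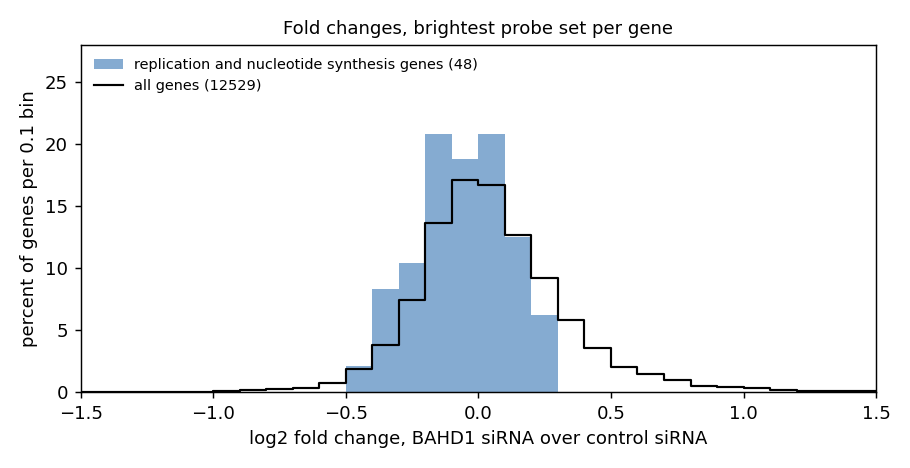
Percent of genes (y axis) by log2 fold change in bins of 0.1 (x axis) for the 48 replication and nucleotide synthesis genes (bars) and for all 12529 genes (line), brightest probe set per gene. The 48 genes lie between -0.40 and 0.27, with 60.4% of them below 0, beside 45.6% of all genes.

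Because E2F factors are known regulators of this gene set, the 250 bases before the transcription start are shown for the 2 genes that fell and for 2 others that hold E2F letters, one with a low fold change and one near 0. The sequences are RefSeq's for GRCh38.p14, read 5' to 3' on the gene's strand, and capitals mark an E2F match. They lie at chr11:61792661-61792910 (plus strand) for FEN1, chr18:657403-657652 (plus strand) for TYMS, chr12:132687343-132687592 (minus strand) for POLE and chr20:5126623-5126872 (minus strand) for PCNA.
FEN1: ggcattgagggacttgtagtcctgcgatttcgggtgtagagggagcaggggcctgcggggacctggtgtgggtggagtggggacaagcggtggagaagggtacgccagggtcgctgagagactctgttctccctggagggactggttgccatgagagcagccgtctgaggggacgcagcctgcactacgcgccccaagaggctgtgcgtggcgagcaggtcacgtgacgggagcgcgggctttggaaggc
TYMS: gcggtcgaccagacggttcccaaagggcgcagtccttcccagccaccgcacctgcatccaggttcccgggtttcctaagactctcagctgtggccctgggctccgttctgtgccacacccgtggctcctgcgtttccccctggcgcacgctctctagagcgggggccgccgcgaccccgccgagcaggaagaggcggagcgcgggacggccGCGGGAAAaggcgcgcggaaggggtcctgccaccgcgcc
POLE: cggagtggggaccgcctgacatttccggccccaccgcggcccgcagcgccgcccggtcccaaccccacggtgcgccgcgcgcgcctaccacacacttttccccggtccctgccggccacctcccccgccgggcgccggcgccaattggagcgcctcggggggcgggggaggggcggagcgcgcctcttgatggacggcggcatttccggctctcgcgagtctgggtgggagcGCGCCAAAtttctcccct
PCNA: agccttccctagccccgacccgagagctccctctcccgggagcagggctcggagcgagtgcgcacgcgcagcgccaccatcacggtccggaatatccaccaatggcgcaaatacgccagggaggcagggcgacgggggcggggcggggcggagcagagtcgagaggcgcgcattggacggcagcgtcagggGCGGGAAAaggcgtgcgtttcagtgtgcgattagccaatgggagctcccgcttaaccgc
The letters searched were TTTGGCGC, TTTCCCGC, TTTCGCGC and TTTGCCGC on both strands, with overlapping matches allowed. TYMS and PCNA hold the same 8 letters, GCGGGAAA, starting 39 and 59 bases before the start, and POLE holds GCGCCAAA starting 18 bases before it. FEN1 has no match in this window. The table held 43 of the 48 genes, with the first listed start used for each; DNA2, GINS4, POLD3, RPA2 and RPA3 were not in it. A match was present in 9 of the 43 (20.9%), beside 2.79% of 27305 promoters of the same length. For the CCAAT box (CCAAT, both strands) the shares were 51.2% and 33.0%. The 27305 promoters were not limited to genes measured here and were not matched for base composition.

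Among the 9 genes with E2F letters, TYMS was called, 8 had a log2 fold change below 0, and the median was -0.14, with a range of -0.38 (POLE) to 0.02 (POLA2). Among the 34 genes without them, FEN1 was called, 19 were below 0 and the median was -0.01. After quantile normalisation the medians were -0.11 and 0.02, with 7 of 9 and 15 of 34 below 0. Of all 12529 genes, 5.52% were called, 45.6% were below 0 and the median was 0.02. Fold changes of all genes with these letters were not computed. These are descriptions, and the difference was not tested. A match of letters says nothing about whether a factor was bound. The lack of a match in this window does not show that a gene is no E2F target.

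FEN1 is the flap endonuclease that trims the displaced 5' ends of Okazaki fragments before they are joined. Its brightest probe set had signals of 1077.1, 885.8 and 804 in the BAHD1 siRNA arrays, against 1265.6, 1212.6 and 1154.6 in the control arrays. Every knockdown value lay below every control value. FEN1 fell to 75.7% of the control level (95% interval 65.8% to 87%), a log2 fold change of -0.40 ± 0.09 (SE, 3 arrays per group; limma, adjusted p = 0.0327; exact two-sided permutation p = 0.1, the smallest that 3 against 3 can give). The second probe set of the gene gave 601.2, 577.4 and 632.6 with BAHD1 siRNA, against 694.4, 622.5 and 663.4 with control siRNA. There the groups overlapped, and the log2 fold change of -0.13 did not pass (adjusted p = 0.34). Over 14 other settings the log2 fold change of the brightest probe set ran from -0.54 to -0.31; its call was lost without BAHD1 siRNA replicate 2 or 3 and without control replicate 1 or 2 (limma adjusted p = 0.0947 to 0.125), without the filter (0.0722) and with one variance prior (0.209).

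The other enzymes that complete the lagging strand and relieve torsion did not pass. DNA ligase LIG1, which seals the trimmed fragments, was at -0.02 with a 95% interval of -0.25 to 0.20. DNA2, a nuclease and helicase that cuts long flaps, had signals of 154.3, 168.7 and 167.1 with BAHD1 siRNA, against 118.8, 134.5 and 153.5 with control siRNA. Its BAHD1 siRNA values were all above its control values, at a log2 fold change of 0.27 ± 0.12 (adjusted p = 0.203). TOP1, which relaxes supercoils by single-strand cuts, had -0.20 and -0.13 in its 2 probe sets, both without overlap and both short of the threshold (adjusted p = 0.135 and 0.422). The probe sets of TOP2A, the topoisomerase known to mark cycling cells, lay on both sides of 0, at 0.04 and -0.16.

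TYMS, thymidylate synthase, converts dUMP to dTMP. Its brightest probe set gave 2843.9, 2678.8 and 2705.9 in the BAHD1 siRNA arrays, against 3411.2, 3117 and 3269 in the control arrays. The groups were clearly apart, and the spread within each was small. TYMS fell to 84% of the control level (95% interval 76.2% to 92.6%; log2 fold change -0.25 ± 0.07, limma adjusted p = 0.0474, exact permutation p = 0.1). Its second kept probe set was called as well: signals were 849, 857.3 and 773.6 with BAHD1 siRNA, against 1090.2, 1041.7 and 961.7 with control siRNA, and the log2 fold change was -0.32 ± 0.07 (limma adjusted p = 0.031). TYMS was thus the one member called by more than 1 probe set. When the probe sets of each gene were averaged before the fit, TYMS was the only member called. Leaving out any 1 of the 6 arrays ended the call of the brightest probe set, at log2 fold changes of -0.28 to -0.22 and limma adjusted p of 0.0536 to 0.179; no filter (0.0662) and one variance prior (0.217) ended it too.

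**Figure D3:**
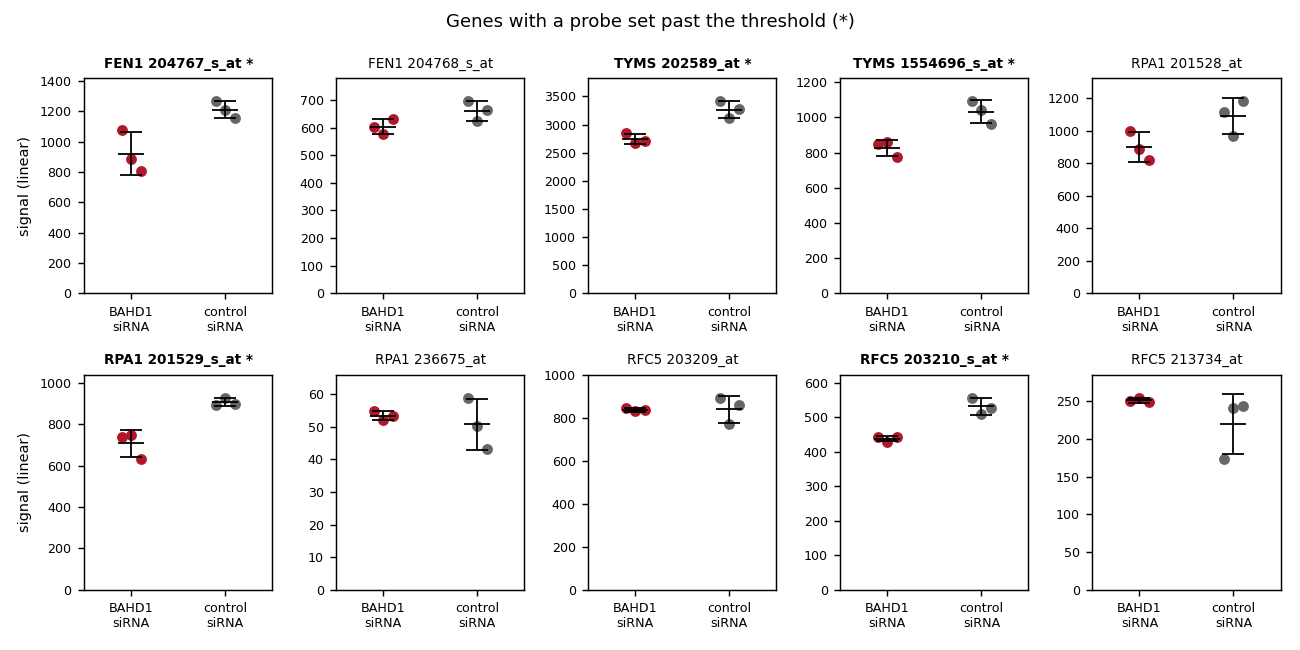
Signal per array (y axis, linear scale from 0) for every kept probe set of FEN1, TYMS, RPA1 and RFC5 in BAHD1 siRNA (left) and control siRNA arrays (right); points are arrays, bars the mean and SD of 3 arrays, and an asterisk marks an adjusted p under 0.05. Both TYMS probe sets separate the groups, while FEN1, RPA1 and RFC5 each have a further probe set in which the difference is smaller or turned.

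The other enzymes of deoxynucleotide synthesis did not pass the test, and 6 of the 7 in this role, TYMS included, were below 0 (median -0.04; 4 of 7 after quantile normalisation). TK1, the thymidine kinase of the salvage route, had 498.1, 450.8 and 474.7 with BAHD1 siRNA, against 507.9, 524 and 521.6 with control siRNA. Its groups did not overlap, but the log2 fold change of -0.13 ± 0.07 was short of the threshold (adjusted p = 0.344). DUT, which removes dUTP and thereby supplies dUMP to TYMS, was at -0.02, -0.23 and -0.03 in its 3 probe sets, the second without overlap (adjusted p = 0.0743). DTYMK, which phosphorylates dTMP, was at -0.02 in its brightest probe set and between -0.28 and 0.67 in its dimmer ones, none called. CTPS1, which makes CTP from UTP, was at 0.03 (95% interval -0.13 to 0.18).

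Ribonucleotide reductase turns ribonucleotides into deoxyribonucleotides with a large subunit, RRM1, and a small subunit, RRM2 in S phase or RRM2B, a p53-inducible alternative. RRM1 was at -0.04 and -0.15 in its 2 probe sets. RRM2 had 1235, 931.1 and 966.5 with BAHD1 siRNA, against 1107.7, 1137.2 and 1159.1 with control siRNA; BAHD1 siRNA replicate 1 was above all control values and the other two were below them, and the log2 fold change was -0.13 ± 0.09 (adjusted p = 0.454). Its second probe set had no overlap, at -0.26 ± 0.08 (adjusted p = 0.0746). RRM2B, which is not among the 48, rose: its signals were 235.9, 271.3 and 310.1 with BAHD1 siRNA, against 146.7, 170.3 and 196.9 with control siRNA, and its log2 fold change was 0.67 ± 0.13 (limma adjusted p = 0.0153), or 159% of the control level with an interval of 132% to 192%. The intervals of RRM2B and of either RRM2 probe set do not meet, though the difference between the genes was not tested. The call of RRM2B was lost with one variance prior (adjusted p = 0.16) and without BAHD1 siRNA replicate 2 or 3 or control replicate 1 or 2 (limma adjusted p = 0.054 to 0.0672), with the log2 fold change at 0.56 to 0.67.

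**Figure D4:**
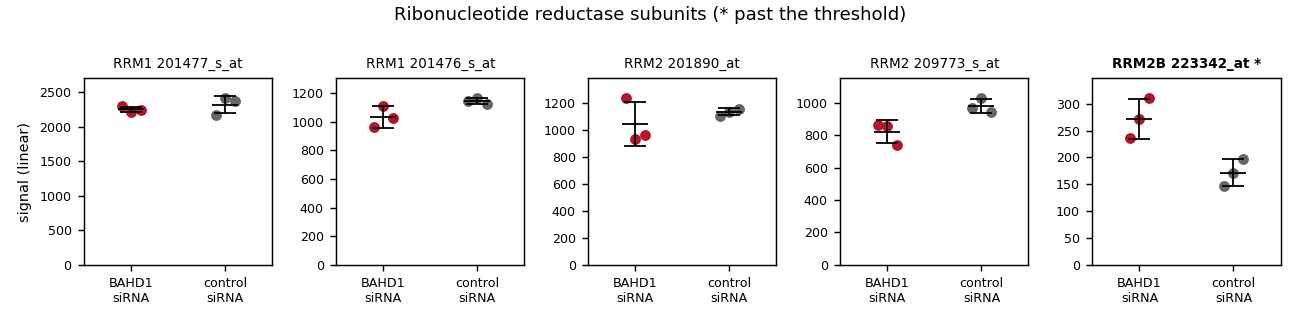
Signal per array (y axis, linear scale from 0) for the kept probe sets of RRM1, RRM2 and RRM2B in BAHD1 siRNA (left) and control siRNA arrays (right), with the mean and SD of 3 arrays. RRM2B is higher in all 3 BAHD1 siRNA arrays, while RRM1 and RRM2 are close to or below the control arrays in most.

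None of the 10 genes of the DNA polymerases and primase passed, with 6 above and 4 below 0 and a median of 0.01. The subunits of polymerase epsilon, the leading-strand enzyme, lay furthest apart. Its catalytic subunit POLE had 165.8, 154.1 and 146.1 in the BAHD1 siRNA arrays, against 201.5, 226.3 and 183 in the control arrays. All 3 knockdown values were below the controls, at 76.6% of their level, and the log2 fold change of -0.38 ± 0.11 just missed the threshold (adjusted p = 0.0627). POLE3, a small histone-fold subunit, had 1069.9, 1169.6 and 1177.4 with BAHD1 siRNA, against 976.6, 897.8 and 980.5 with control siRNA. It was higher in all 3 knockdown arrays, at 0.26 ± 0.07, and also just missed (limma adjusted p = 0.0511). After quantile normalisation POLE3 was called (limma adjusted p = 0.0359), and with array medians centred it was not (0.553). It was also called with a replicate block, the stricter filter, array weights, log2(signal + 16) and without BAHD1 siRNA replicate 1. The remaining settings did not call it. The accessory subunit POLE2 was at 0.12 without overlap (adjusted p = 0.369).

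Of polymerase delta, which extends the lagging strand, POLD2 was at -0.20 ± 0.08 (adjusted p = 0.198) with overlapping groups, whereas the catalytic subunit POLD1 was at 0.01 with an interval of -0.16 to 0.17. POLD3 was at 0.05 in its bright probe set and -0.82 in a dim one with signals from 19.2 to 54.9, neither called. Polymerase alpha and primase, which start each strand, had overlapping groups, at -0.12 for POLA1, 0.02 for POLA2, -0.00708 for PRIM1 and 0.19 for PRIM2. For PRIM2, 1 of 5 probe sets is annotated to the gene alone and only that one was used.

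PCNA, the sliding clamp, was among the most tightly bounded members. Its signals were 2711.7, 2577.3 and 2706.9 in the BAHD1 siRNA arrays, against 2629, 2734 and 2784.5 in the control arrays. The groups overlapped, and the log2 fold change was -0.03 with an interval of -0.16 to 0.11. The 5 subunits of its loader were all below 0 by the brightest probe set: RFC1 -0.18, RFC2 -0.10, RFC3 -0.15, RFC4 -0.11 and RFC5 -0.00351. After quantile normalisation RFC5 was at 0.03 and the other 4 were still below 0. None of these passed (adjusted p = 0.165 for RFC1 and 0.252 for RFC3). Further probe sets were at -0.0036 for RFC1, -0.15 for RFC2, and -0.01 and 0.50 for RFC3. The last was dim, with signals of 19.2 to 46.4, and none of them was called. The probe sets of RFC5 disagreed. One fell, with 442.1, 429 and 442.2 with BAHD1 siRNA, against 555.6, 508.6 and 527.7 with control siRNA and a log2 fold change of -0.28 ± 0.07 (limma adjusted p = 0.0477; 0.0593 after quantile normalisation, and 0.0718 to 0.161 without any 1 array). The dimmest was higher in all 3 knockdown arrays, at 0.21, and was not called.

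RPA1, the large subunit of the single-strand binding protein, had negative log2 fold changes in both of its bright probe sets. The brighter had 1000.5, 889.7 and 818.7 in the BAHD1 siRNA arrays, against 1119.2, 966 and 1181.2 in the control arrays. One knockdown value lay above the lowest control value, and the log2 fold change of -0.27 ± 0.09 did not pass (adjusted p = 0.108). The other had 740.4, 748.7 and 632.7 with BAHD1 siRNA, against 893.7, 927.2 and 899.3 with control siRNA, and there RPA1 fell to 77.8% of the control level (log2 fold change -0.36 ± 0.08, limma adjusted p = 0.0226; 0.0573 to 0.0943 without BAHD1 siRNA replicate 2 or 3 or control replicate 1 or 2). Another, with signals of 43.1 to 58.9, was at 0.09. The smaller subunits RPA2 and RPA3 were at 0.02 and -0.10, with intervals of -0.14 to 0.17 and -0.23 to 0.03. Counting any kept probe set, 4 of the 48 genes (8.33%) had one called, all lower, beside 7.68% of all genes, and 5 of the 83 member probe sets (6.02%) were called, beside 4.45% of all (2.28% lower, 2.17% higher).

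The 6 ORC subunits, which mark origins, split evenly around 0 and none passed. The groups did not overlap in 4 of the 6 (66.7%, beside 28.2% of all genes), 2 of them lower and 2 higher. With only 6 genes in the list, this share is a description and was not tested. ORC1, the subunit that sets the complex on chromatin in G1, had 195.7, 161.4 and 168.8 with BAHD1 siRNA, against 214.9, 201.5 and 202.3 with control siRNA and ORC3 had 432.5, 494.3 and 455.2 with BAHD1 siRNA, against 526.1, 561.2 and 533.5 with control siRNA. Their log2 fold changes were -0.24 ± 0.10 and -0.23 ± 0.08 (adjusted p = 0.207 and 0.106). ORC6 had 612.6, 579.1 and 668.9 with BAHD1 siRNA, against 482.7, 558.5 and 544.1 with control siRNA and ORC4 had 690.7, 657.4 and 707.3 with BAHD1 siRNA, against 612.2, 610 and 615.7 with control siRNA. These were higher with the knockdown, at 0.23 ± 0.08 and 0.16 ± 0.07 (adjusted p = 0.13 and 0.193). ORC2 and ORC5 were at -0.09 and 0.01.

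Among the factors that fire origins, CDC45, which joins the helicase with GINS, had the smallest p. Its signals were 904.9, 824.9 and 685.7 in the BAHD1 siRNA arrays, against 1068.6, 998.7 and 935.8 in the control arrays. The groups did not overlap, the level was 80% of control, and the log2 fold change of -0.32 ± 0.09 missed the threshold (adjusted p = 0.0731). GINS4 was at -0.33 (adjusted p = 0.262), and 1 control array, at 154.2, stood above the other 5, which were between 88.7 and 109.3. The other GINS subunits were at 0.01 (GINS1), -0.14 (GINS2) and 0.08 (GINS3). A second probe set of GINS3, of similar brightness, was at -0.16. Dim further probe sets were at 0.20 and -0.14 for GINS4 and at -0.05 and 0.60 for GINS2. None of these was called. The kinase CDC7 and its activator DBF4 were at 0.11 and 0.16, with overlapping groups.

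Of the proteins that stabilise the fork, none passed. TIMELESS and TIPIN, which form a complex at the fork, were at 0.11 and 0.09 (adjusted p = 0.436 and 0.543). CLSPN, the adaptor through which ATR activates the checkpoint kinase CHK1, was the dimmest member, with signals of 47.1, 48.8 and 60.7 with BAHD1 siRNA, against 59.2, 76.4 and 67 with control siRNA. It was at -0.37 ± 0.17 (adjusted p = 0.243), with a second probe set at -0.28. WDHD1, which tethers polymerase alpha to the helicase, was at -0.02, while its further probe sets were at 0.37 and 0.17, both without overlap and neither called. Over all 25 members with more than 1 kept probe set, the probe sets lay on one side of 0 in 14 and on both sides in 11.

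Lists of 136 other genes of replication, nucleotide supply and the cell cycle, 125 of them measured, were set beside the 48. In these lists 9 genes fell and 5 rose, 11.2% in all, beside 5.52% of all genes; the lists were written with earlier results of these data known, and the share is a description. Of the 10 genes of helicase loading, CDC6, which brings the MCM helicase to origins, fell, at -0.61 ± 0.10 (limma adjusted p = 0.00874), with its second probe set at -0.32 ± 0.07. The MCM subunits did not pass. RNASEH2A, the catalytic subunit of the nuclease that removes ribonucleotides from DNA, had 1307.1, 1171.8 and 1408.5 with BAHD1 siRNA, against 1688, 1986.6 and 1914 with control siRNA and fell to 69.5% of control (-0.52 ± 0.08, limma adjusted p = 0.00815); the other 13 measured genes of its list did not pass. The groups of RNASEH2A were far apart.

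Among 8 alternative clamp loaders and partners of PCNA, DSCC1, a subunit of the CTF18 clamp loader, fell by 0.49 on the log2 scale. DTL, the receptor of a ubiquitin ligase that acts on PCNA-bound proteins, fell by 0.23. The second probe set of DTL, at -0.19, was not called (limma adjusted p = 0.106). Of 8 genes measured for chromatin assembly behind the fork, the histone chaperone gene ASF1B fell by 0.40 and SUPT16H, a FACT subunit, by 0.39, and the second probe set of SUPT16H was called too (-0.42). The medians of these 2 lists were -0.20 and -0.17, and that of other polymerase subunits and replication factors was -0.18. These were the lowest medians of the related lists. The other medians ran from -0.10 (mitotic markers) to 0.02 (G1/S cyclins, CDKs and E2F factors), beside 0.02 for all genes. In the S-phase checkpoint list CDC25A, the phosphatase that activates CDK2, fell by 0.28, and the other 9 measured genes did not pass. Further probe sets of CDC25A, at -0.23 and -0.44, were not called (limma adjusted p = 0.156 and 0.0537).

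In the list of G1/S cyclins, CDKs and E2F factors, TFDP2, a dimer partner of E2F, fell (-0.46 ± 0.09) and RB1, which restrains E2F, rose (0.45 ± 0.12), while the other 20, E2F1 to E2F8 included, did not pass. The CDK inhibitor gene CDKN1C rose (0.66 ± 0.15), with its 3 other probe sets at 0.14 to 0.37 and not called; CDKN1A, the p53-inducible inhibitor, was at -0.02 with an interval of -0.22 to 0.19. PRPS2, which makes the ribose precursor of nucleotides, rose (0.27 ± 0.06), and the other 11 measured purine genes did not pass. All 3 measured folate cycle genes and all 5 measured mismatch repair genes did not pass. Of 12 mitotic markers, AURKB fell (-0.38 ± 0.08) and KIF11 rose (0.37 ± 0.07), and MKI67, a marker of cycling cells, was at -0.09 (interval -0.31 to 0.14). Adjusted p for the 14 called genes ran from 0.00815 to 0.0486 (limma, intensity-trend fit), and none passed with one variance prior. With array medians centred, RB1, PRPS2 and KIF11 no longer passed (0.32, 0.13 and 0.24), and after quantile normalisation CDC25A did not (-0.26). Leaving out BAHD1 siRNA replicate 2 or 3 left 3 genes of these lists called, and leaving out control replicate 1 or 2 left 4 or 7. Another 7 genes were called by a further probe set only: RAD17, CCND2, PRPS1 and ADSL were lower in it and ASF1A, GMPS and SAMHD1 higher.

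**Figure D5:**
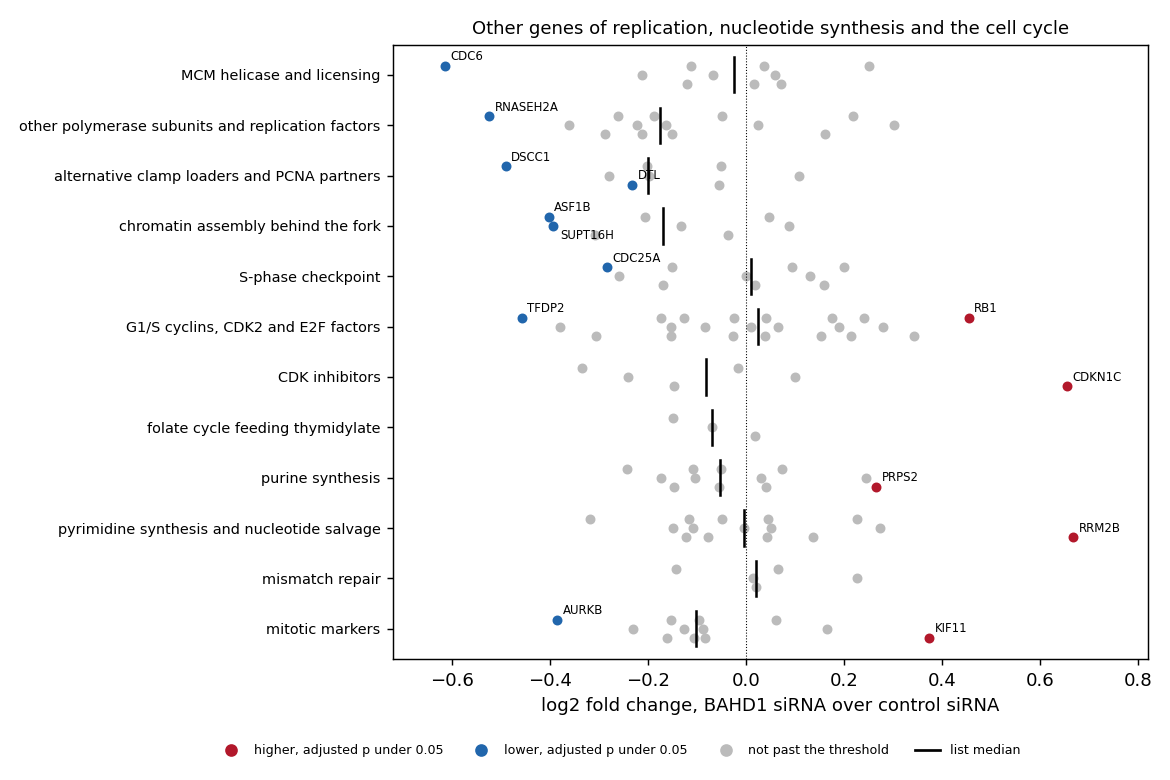
Log2 fold change of BAHD1 siRNA over control siRNA (x axis) for the 125 measured genes of 12 related lists (rows), brightest probe set per gene; red and blue mark an adjusted p under 0.05 (higher and lower), grey the other genes and black bars the list medians. The 9 falls are spread over 7 lists and the 5 rises over 5.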

How the data were processed

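Total RNA from 6 HEK293 cultures was labelled and hybridised to 1 array each, and samples were grouped and numbered by their titles. The deposited table holds linear intensity values per probe set, and the mean of each array without its extreme 2% was 100; GCOS and GCRMA are named in the submitters' processing notes, but which of them wrote the table is not stated there. Without detection calls, dim signals have no stated background.

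Values were transformed to log2(signal + 1). Control probe sets (62) were left out, and 27458 probe sets above 17.9 in at least 3 of 6 arrays were kept, 23546 of them annotated to 1 gene. The 2 groups were compared with limma 3.58.1 under R 4.3.3, using lmFit, eBayes with trend and robust, and Benjamini-Hochberg adjustment. The 48 members, the lists and this prior were chosen with earlier results of these data known, including that a single prior calls no probe set. Single values were also tested by exact two-sided permutation. Named genes were BAHD1, each member with a called probe set, the 3 members per role with the smallest p not called, and each called gene of the related lists; other members and further probe sets were named after their values were seen. Alternatives were the single prior, a replicate block, no filter or a stricter one (99.9, the 75th percentile), 2 other scalings, array weights, log2(signal + 16), other choices of probe set, and leaving out each array. No pair of arrays shared more than 1.08% of values, and no batch is labelled. The siRNA sequences were not used here.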

Additional observations from a re-analysis of the deposited data

How the results depend on the processing

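No called result changed direction in these settings, and for the named probe sets 162 values stayed on the same side of the threshold and 104 lost the call. The count over all probe sets was 1221 (596 higher, 625 lower). It was 0 with one variance prior (4843 at an unadjusted p under 0.05), 398 without the filter and 177 to 1174 with 1 array left out. It rose to 1622 with the stricter filter, which kept fewer probe sets, and to 1520 with array weights. Centring array medians gave 1707, split into 192 higher and 1515 lower. Of the 48 replication and nucleotide synthesis genes, 2 were called; the number was 0 with one variance prior or no filter, 5 with the stricter filter, 6 with centred medians, 4 with array weights, 1 with probe sets averaged and 0 to 3 with 1 array left out. Counting any probe set, 4 became 0 with one variance prior or no filter, 9 with the stricter filter, 10 with centred medians and 0 to 6 with 1 array left out. FEN1 and TYMS were among the genes called in every setting that called more than 3, with POLE, POLE3, CDC45, RPA1 or ORC3 added. Without BAHD1 siRNA replicate 1 or control replicate 3, FEN1 was called but the brightest probe set of TYMS was not. With probe sets averaged, TYMS was called but FEN1 was not. The median log2 fold change of the 48 was -0.02; it was -0.16 with centred medians, 0.0046 after quantile normalisation and -0.056 to -0.015 with 1 array left out, the lowest without BAHD1 siRNA replicate 1. In the related lists 14 genes became 0 with one variance prior, 8 without the filter and 3 to 15 with 1 array left out. The BAHD1 transcript ran from -0.53 to -0.30 over its alternatives and passed in none; under the stricter filter it was not kept. Why these counts moved was not tested.

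Replicate numbers were shared by both groups. Uncorrected, arrays of different groups correlated at 0.966 to 0.972. After the mean of its own group was subtracted from each array, same-numbered arrays correlated at only 0.0101 to 0.0239. Not every array then correlated best with its own number, so the arrays were not taken as pairs. With the replicate block, 1629 probe sets, 4 of the 48 genes and 8 counting any probe set were called. With 3 arrays per group, the exact permutation test could not go below 0.1.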
